A study of Mus musculus with 22 samples.

Results

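Leg muscle of SJL mice was compared with leg muscle of Balb mice at an age of 12 months, which the labels give as 1 year. Expression was read on Affymetrix arrays, on which a probe set is a group of short oligonucleotides that together report 1 transcript. The 6 arrays, 3 of each strain, were taken by strain, muscle and age from a series of 22 that also held eye muscle and mice aged 10 months, and all 12422 non-control probe sets entered the comparison. The labels name no transgene, treatment or sex and do not say which muscle of the leg was taken. Nothing states that the 3 arrays of a strain came from different animals; each p-value therefore reflects no more than the variation among these samples, which may be technical.

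SJL is an inbred strain that carries a splice-site mutation in Dysf, the gene of dysferlin. Dysferlin sits at the muscle fibre membrane and acts with annexins and other proteins in resealing tears; without it, limb muscle slowly degenerates, fibres regenerate and macrophages enter the tissue, while the muscles that move the eye are reported to be largely spared. Balb, also inbred, served as the comparison strain. The strains differ at many other loci as well, so an effect of the Dysf mutation and an effect of the rest of the genetic background cannot be told apart on these arrays. No probe set was named for Dysf or for its relative Myof, and neither gene was analysed here.

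The 6 arrays had been scaled to 1 level before deposit, with 2%-trimmed means between 1501 and 1501.1. Their median intensities lay between 423 and 452 and their highest intensities between 33366 and 41476, and correlations of log2 intensities were 0.953 to 0.964 within a strain and 0.925 to 0.943 between strains. The ratio of the 3 prime to the 5 prime probe set of Actb, a check of RNA integrity, was 1.04 to 1.56 on the 6 arrays, against 0.847 to 53.7 over the whole series. The same ratio for Gapdh was uneven, with 0.0976, 1.44 and 0.706 on the Balb arrays against 0.0797, 0.0789 and 0.0534 on the SJL arrays. For Tfrc, the transferrin receptor, it was 7.16, 5.15 and 4.10 on the Balb arrays and 5.75, 8.06 and 9.50 on the SJL arrays. Over the whole series the Tfrc ratio ran from 1.72 to 13.3. The part of these ratios in the results was not tested. Transcripts of skeletal muscle were present on every array, with intensities of 10007 to 21117 for Ckm (muscle creatine kinase), 17214 to 31209 for Tnnt3 (fast troponin T), 22254 to 33125 for Pygm (muscle glycogen phosphorylase) and 4086 to 6085 for Mylpf (fast myosin light chain). Acta1, skeletal alpha-actin, ranged more widely, from 955 to 9528, and none of these 5 genes passed between the strains.

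Between the strains, 250 probe sets were higher in SJL and 305 were lower, which is 2.01% and 2.46% of those tested and 4.47% together. The values compared were log2(intensity + 16), the test was limma's with variances that follow intensity, and a probe set counted as changed at a Benjamini-Hochberg adjusted p below 0.05 over all 12422. All differences are SJL minus Balb on that log2 scale, given with their standard error, and understate the change of dim probe sets. On each of the 555 changed probe sets every SJL array lay on 1 side of every Balb array, a separation that 22.8% of all probe sets showed. The difference passed 1 on the log2 scale for 102 of the higher and 128 of the lower probe sets, while the median over all probe sets was -0.02. Taken gene by gene, with a gene represented by its brightest probe set, 183 of 8251 genes rose (2.22%) and 231 fell (2.8%), 5.02% together.

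The number of changed probe sets depended on the arrays in the fit. It was 205 without Balb replicate 3, 262 without Balb replicate 2, 271, 290 and 343 without SJL replicates 3, 2 and 1, and 488 without Balb replicate 1. Centring each array on its median turned the split to 286 higher and 235 lower, 54.9% higher against 45.0% as deposited. With 1 variance prior for all intensities there were 110 calls, with limma's ordinary test without moderation 80, and with the spread shared with the other 6 leg arrays or with all 22 arrays 60 and 70. None of the 88 genes named by the rule given with the processing changed sign under any alternative that was run. Other genes in the text were not put through this check. For the 74 of the 88 that passed, keeping the sign was largely fixed in advance. Their strains do not overlap, so leaving out 1 array cannot reverse them, and fits that changed only the variance kept the differences. Of these 74 named genes, 37 passed in each of the 6 fits that left out 1 array.

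**Figure D1:**
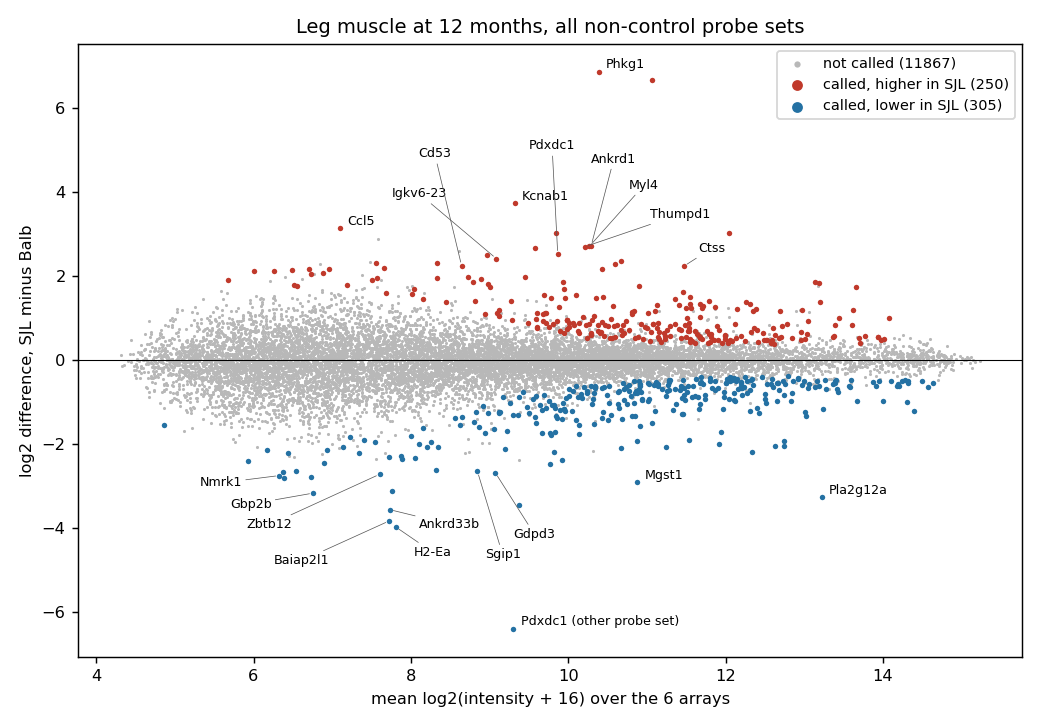
Each point is 1 of the 12422 probe sets, with its mean log2(intensity + 16) over the 6 arrays on the x axis and its log2 difference, SJL minus Balb, on the y axis. Red points are the 250 probe sets called higher in SJL, blue points the 305 called lower and grey points the rest; Phkg1 stands at the top with 6.86 and a second Pdxdc1 probe set at the bottom with -6.40.

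Among named genes Phkg1 had the largest rise. It encodes the muscle catalytic subunit of phosphorylase kinase, the enzyme that switches on glycogen breakdown. Phkg1 read 13724, 14297 and 15295 on the SJL arrays and 152, 78.7 and 105 on the Balb arrays, a difference of 6.86 ± 0.20 (adjusted p = 3.92e-07). Its highest Balb value was near 132, the mean intensity below which the dimmest 30% of probe sets lay, while all 3 SJL values were far above it. Kcnab1, a beta subunit of voltage-gated potassium channels, read 1816, 2469 and 2783 on the SJL arrays and 187, 87.2 and 242 on the Balb arrays and differed by 3.74 ± 0.34 (adjusted p = 0.000505). Its second probe set also rose, by 2.30 ± 0.46, a call that held in only 1 of the 6 fits that left out an array. Thumpd1, an RNA-binding protein that assists acetylation of transfer RNA, read 3054, 3045 and 2944 on the SJL arrays and 579, 434 and 362 on the Balb arrays, a difference of 2.70 ± 0.17 (adjusted p = 6.96e-05).

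Ccl5, a chemokine that attracts T cells and macrophages, read 297, 404 and 499 on the SJL arrays and 26.2, 20.4 and 48.9 on the Balb arrays. All Balb values lay among the dimmest probe sets, and the difference was 3.14 ± 0.43 (adjusted p = 0.00493). The probe set for the immunoglobulin light chain segment Igkv6-23 read 925, 2399 and 855 on the SJL arrays and 218, 255 and 189 on the Balb arrays, with SJL replicate 2 the highest, and differed by 2.42 ± 0.38 (adjusted p = 0.00882); it is of a type that can match related sequences. The large rises of Ankrd1, Myl4, Cd53 and Ctss are described below with the groups they belong to, and Pdxdc1, whose probe sets passed in opposite directions, with the other genes of that kind.

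Pla2g12a, a secreted phospholipase, was the most precise of the large falls. Its values were 2862, 3201 and 3123 on the SJL arrays against 28803, 30615 and 29502 on the Balb arrays, a difference of -3.27 ± 0.09 (adjusted p = 3.92e-07). A second probe set of Pla2g12a fell much less, by 0.72, with a standard error of 0.09. The probe set with the larger fall is of a type that can match related sequences. Any part of other transcripts in its signal was not tested. Mgst1, a microsomal glutathione transferase that detoxifies reactive lipids, read 796, 543 and 702 on the SJL arrays and 4730.2, 5169.6 and 5594 on the Balb arrays and differed by -2.91 ± 0.15 (adjusted p = 2.24e-05). Sgip1, an endocytic adaptor, read 189.6, 227 and 108 on the SJL arrays and 738, 1291 and 1544 on the Balb arrays, a difference of -2.65 ± 0.36 (adjusted p = 0.00443).

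Baiap2l1, which shapes membranes with the actin cytoskeleton, read 22.4, 71.2 and 36.5 on the SJL arrays and 945, 785 and 641 on the Balb arrays, a difference of -3.83 ± 0.42 (adjusted p = 0.00141). Ankrd33b read 94.5, 58.4 and 12.9 on the SJL arrays and 759, 889 and 541 on the Balb arrays and differed by -3.56 ± 0.52 (adjusted p = 0.00685). All SJL values of both genes were in the range of the dimmest probe sets. The same held for the remaining large falls, Nmrk1 (nicotinamide riboside kinase) with a difference of -2.75 ± 0.39, Zbtb12 with -2.72 ± 0.44 and Gbp2b (an interferon-induced guanylate-binding protein) with -3.17 ± 0.57. Gdpd3, a lysophospholipase D, read 54.7, 402 and 309 on the SJL arrays and 1439, 1503 and 1145 on the Balb arrays, a difference of -2.69 ± 0.57 (adjusted p = 0.0333). SJL replicate 1 was the lowest array for Gdpd3, and the call was lost without Balb replicate 1, 2 or 3 or SJL replicate 3; that of Gbp2b was lost without Balb replicate 3 or SJL replicate 1 or 3.

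Of the 42 measured genes of macrophages and other myeloid cells 7 rose and none fell, which is 16.7% against 2.22% of all genes. The difference was above 0 for 36 of them, and the median was 0.70, where the median over all genes was -0.01 and 49.1% of genes were above 0. Ctss, a lysosomal protease with which antigen-presenting cells cut the invariant chain, read 6218, 6436 and 5839.8 on the SJL arrays and 1381, 1044 and 1497 on the Balb arrays, a difference of 2.24 ± 0.14 (adjusted p = 5.96e-05). Lyz2, lysozyme of macrophages and granulocytes, read 5915, 5024 and 4881 on the SJL arrays and 2729, 1843 and 1939.7 on the Balb arrays, and all SJL arrays lay above the highest Balb array, with a difference of 1.29 ± 0.16 (adjusted p = 0.00242). Lgmn, the lysosomal protease legumain, read 2742, 2364 and 2900.3 on the SJL arrays and 1222, 1213 and 1161 on the Balb arrays, a difference of 1.14 ± 0.12 (adjusted p = 0.000977). Cd53, a tetraspanin of leukocytes, read 722, 1170.4 and 743 on the SJL arrays and 288, 115 and 139 on the Balb arrays and differed by 2.25 ± 0.37 (adjusted p = 0.0119); that call was lost without Balb replicate 3 or SJL replicate 2. The other passing members, named after their values were seen, were Mpeg1 (1.54), Lgals3 (1.48) and Emp3 (0.68).

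The defining markers of macrophages did not pass individually. Cd68, a lysosomal membrane protein of macrophages, read 1232, 1248 and 1242 on the SJL arrays and 977, 537 and 763 on the Balb arrays, a difference of 0.74 ± 0.21 (adjusted p = 0.0957). Csf1r, the receptor for the growth factor of macrophages, read 1961, 2130.3 and 2165 on the SJL arrays and 1422, 1411 and 1815 on the Balb arrays, a difference of 0.43 ± 0.13 (adjusted p = 0.114). All SJL arrays were above all Balb arrays in both genes, but 22.8% of all probe sets separate the strains in 1 direction or the other. Itgam, a leukocyte integrin, lay between 23 and 90.8 with the strains overlapping, and Adgre1, the F4/80 antigen, was at most 71.3 on the Balb arrays and highest on SJL replicate 1, with 331. The summed intensity of the 42 genes was 44069 to 45671 on the SJL arrays and 18544 to 29916 on the Balb arrays. Without Balb replicate 1 there were 14 passing members, and without Balb replicate 3 or SJL replicate 2 there were 4. In whole muscle, more cells of a type and more RNA per cell cannot be told apart, here and in the groups that follow.

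Of 25 measured genes of lymphocytes and NK cells, 1 rose (4%, against 2.22% of all genes) and none fell, and the median was -0.28. That gene was Ighm, the heavy chain of immunoglobulin M, which read 15432, 15168 and 14883 on the SJL arrays and 5053, 5803 and 6696 on the Balb arrays, a difference of 1.38 ± 0.11 (adjusted p = 0.000286). Ighm had 16 probe sets, of which 1 other passed, at 14139.9, 19882 and 17849 on the SJL arrays and 3847, 4578 and 5851 on the Balb arrays. In these, the brightest of the gene, every SJL array was above every Balb array. The remaining 14 did not pass, lay above 0 in 7 cases and below 0 in 7, and read at most 525 on any array. Of the 25 genes 13 were among the dimmest 30%. Cd3e, a part of the T cell receptor complex, lay between 66.7 and 94.7 on all 6 arrays, and Cd79a, a part of the B cell receptor, did not pass with -0.60 ± 0.49. No gene of neutrophils and mast cells passed among 22, and the median was 0.07. The members with the smallest p were Mpo (myeloperoxidase), with 1.06 ± 0.42 (adjusted p = 0.235), and Cpa3 (mast cell carboxypeptidase), with 0.58 ± 0.25 (adjusted p = 0.266).

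MHC class II molecules present peptides to helper T cells, and their genes share a short promoter element, the Y box. The 150 bases before the start of 2 class II genes that rose are shown with the motif CTGATTGG, searched on both strands, in capitals. They are RefSeq sequences of assembly GRCm38.p6, H2-Aa at chr17:34287824-34287973 on the minus strand and H2-Eb1 at chr17:34305717-34305866 on the plus strand, written 5′ to 3′ along the gene.
H2-Aa: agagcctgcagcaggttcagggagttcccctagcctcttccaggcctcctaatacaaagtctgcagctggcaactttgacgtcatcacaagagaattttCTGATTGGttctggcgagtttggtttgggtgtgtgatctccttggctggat
H2-Eb1: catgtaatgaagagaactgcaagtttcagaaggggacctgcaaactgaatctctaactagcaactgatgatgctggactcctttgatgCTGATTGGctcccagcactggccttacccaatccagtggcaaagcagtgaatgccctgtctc
In the 250 bases before the start, the motif was present in both of the higher class II genes that had a promoter entry, in 3 of 7 listed genes with an entry and in 3.83% of 32851 mouse promoters.

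Of the 11 class II genes and chaperones measured, 4 rose (36.4%) and 1 fell (9.09%), against 2.22% and 2.8% of all genes. The median was 0.78. H2-Eb1, a beta chain, read 5046, 5046 and 4726 on the SJL arrays and 1673, 1189 and 2041 on the Balb arrays, a difference of 1.62 ± 0.17 (adjusted p = 0.00138). H2-Aa, an alpha chain, read 4719, 5055 and 4481 on the SJL arrays and 2426, 1300 and 2031 on the Balb arrays, a difference of 1.35 ± 0.20 (adjusted p = 0.00726). Cd74, the invariant chain that guides class II molecules to the endosome, read 11411, 13179.6 and 11849 on the SJL arrays and 6625, 3658 and 6096 on the Balb arrays, a difference of 1.19 ± 0.20 (adjusted p = 0.0128). As on every changed probe set, the strains did not overlap in these genes, and Balb replicate 2 was the lowest of its group each time. H2-Ab1, named after its values were seen, rose by 0.86 ± 0.20.

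H2-Ea went the other way. This alpha chain of the second class II molecule read 22.1, 56.2 and 50 on the SJL arrays and 1126, 537 and 1106 on the Balb arrays, a difference of -3.98 ± 0.44 (adjusted p = 0.00155), and all its SJL values were among the dimmest probe sets. The fall of H2-Ea passed in all 6 fits that left out 1 array, whereas only 2 of the 4 rises passed without SJL replicate 2, where Cd74 was among those lost. Of 13 genes of MHC class I and peptide loading none passed, 11 were above 0 and the median was 0.34. Tapbp (tapasin) had 0.61 ± 0.15 (adjusted p = 0.0569) on its brightest probe set, -1.05 ± 0.30 (adjusted p = 0.101) on another, whose SJL arrays were all below the Balb arrays, and 0.20 ± 0.26 on the third. Pdia3, which works with it, had 0.68 ± 0.17 (adjusted p = 0.0628).

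Interferon-induced genes carry repeats of GAAA in their promoters. The 150 bases before the start are shown for Gbp2 (chr3:142620513-142620662) and Igtp (chr11:58199406-58199555), both on the plus strand, with the core of the interferon response element, GAAA repeated with a gap of 2 free bases and searched on both strands, in capitals.
Gbp2: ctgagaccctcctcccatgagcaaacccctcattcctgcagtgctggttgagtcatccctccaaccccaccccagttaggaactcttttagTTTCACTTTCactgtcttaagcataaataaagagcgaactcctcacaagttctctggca
Igtp: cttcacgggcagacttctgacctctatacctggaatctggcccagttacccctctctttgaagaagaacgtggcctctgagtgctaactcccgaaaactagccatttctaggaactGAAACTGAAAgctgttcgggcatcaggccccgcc
The motif was present in the 250 bases before the start of 2 of the 5 higher interferon genes with a promoter entry, 10 of the 23 listed genes with an entry and 2.98% of all promoters. A match is a description of these letters and not a binding site.

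Of 29 measured interferon-response genes, 8 rose (27.6%, against 2.22% of all genes) and none fell, and the median was 0.50. Psme1, a proteasome activator subunit that helps to produce peptides for MHC class I, read 9249.9, 8549.6 and 8967 on the SJL arrays and 5264, 4763 and 5129 on the Balb arrays, a difference of 0.82 ± 0.09 (adjusted p = 0.0013). Iigp1, an immunity-related GTPase, read 1973, 2164 and 2469.9 on the SJL arrays and 1054, 1183 and 1493 on the Balb arrays, a difference of 0.83 ± 0.15 (adjusted p = 0.0198). Gbp2, a guanylate-binding protein, read 1106, 1314 and 2092 on the SJL arrays and 668, 515 and 620.3 on the Balb arrays, with SJL replicate 3 the highest, and differed by 1.26 ± 0.24 (adjusted p = 0.0206). The strains did not overlap in these genes, as on every changed probe set. Igtp (1.09), Irf9 (1.13), Ifi204 (0.56), Usp18 (2.20) and the dim chemokine gene Cxcl9 (2.13) also passed and were named after their values were seen. Among the 4 genes below 0, Ifitm2, an antiviral membrane protein, had -1.11 ± 0.40 (adjusted p = 0.182) and Ifi35 -0.66 ± 0.19 (adjusted p = 0.107). All SJL arrays were below all Balb arrays in both, where 22.8% of all probe sets separate the strains. Gbp2b, described above, is interferon-induced too but not on this list, and it fell. The count of 8 rested on single arrays more than any other immune group: it was 1 without SJL replicate 2 or without SJL replicate 3, 2 without Balb replicate 2, 3 without Balb replicate 3 and 5 without SJL replicate 1. Psme1 kept its call in all 6 of those fits.

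Complement and its regulators showed 2 rises (11.8%) and 1 fall (5.88%) among 17 measured genes, against 2.22% and 2.8% of all genes. Cd55, decay-accelerating factor, which protects cells from complement by dissociating its convertases, read 247, 219 and 341 on the SJL arrays and 1326, 912 and 1446 on the Balb arrays. The highest SJL array was below the lowest Balb array, with a difference of -2.12 ± 0.25 (adjusted p = 0.00235). Serping1, the inhibitor of the C1 proteases, read 10306, 9206 and 10526 on the SJL arrays and 6367, 6441 and 6169.8 on the Balb arrays, a difference of 0.66 ± 0.09 (adjusted p = 0.00479). Clu (clusterin), an inhibitor of the terminal complex, read 1962, 1898 and 1787 on the SJL arrays and 947, 924 and 1295 on the Balb arrays, a difference of 0.84 ± 0.15 (adjusted p = 0.0175), and lost its call without Balb replicate 2 or any 1 of the SJL arrays. A second Clu probe set rose too, by 1.81 ± 0.33.

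Lysosomal genes rose in 5 (16.1%) and fell in 1 (3.23%) of 31 measured, against 2.22% and 2.8% of all genes, with a median of 0.14. Ctsh, a lysosomal aminopeptidase, read 1082, 1303 and 1004 on the SJL arrays and 515, 528 and 492 on the Balb arrays, a difference of 1.11 ± 0.17 (adjusted p = 0.00783). Ctsl read 7634, 7659 and 7984 on the SJL arrays and 5528, 4719 and 5178 on the Balb arrays, a difference of 0.59 ± 0.09 (adjusted p = 0.00882). Ctsb, another cathepsin protease, differed by 0.49 ± 0.09 (adjusted p = 0.0159). Gaa, the acid glucosidase that breaks down glycogen in the lysosome, was lower, at 8603, 8303 and 8145 on the SJL arrays and 10687, 11863 and 12091 on the Balb arrays, a difference of -0.47 ± 0.09 (adjusted p = 0.0229). Lipa (1.92) and Tpp1 (0.47) passed and were named after their values were seen. Without Balb replicate 2 or 3, or SJL replicate 2 or 3, the list had 2 rises and no fall, and Ctsh and Ctsl kept their calls in all 6 fits. Of the 42 myeloid genes above, 7 rose on the same arrays. The part of myeloid cells in these lysosomal values was not tested.

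Regenerating fibres re-express embryonic contractile proteins, and their acetylcholine receptor genes are switched on through E boxes, the letters CANNTG. The 150 bases before the start of Chrna1 (chr2:73580339-73580488) and Chrnb1 (chr11:69795938-69796087), both on the minus strand, are shown with the E boxes CAGCTG and CACCTG, searched on both strands so that the latter can read CAGGTG, in capitals.
Chrna1: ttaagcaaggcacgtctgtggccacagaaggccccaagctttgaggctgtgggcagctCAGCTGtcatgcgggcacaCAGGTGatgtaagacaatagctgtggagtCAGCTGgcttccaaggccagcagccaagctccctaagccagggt
Chrnb1: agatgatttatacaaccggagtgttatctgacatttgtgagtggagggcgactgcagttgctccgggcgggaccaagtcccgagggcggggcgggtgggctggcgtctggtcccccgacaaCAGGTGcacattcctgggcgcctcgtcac
In the 250 bases before the start, CAGCTG was present in 1 and CACCTG in 4 of the 8 genes of the list that rose, in 8 and 10 of the 35 listed genes with a promoter entry, and in 13% and 17.2% of all promoters.

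Of 46 measured genes of regeneration, immature fibres and satellite cells, 8 rose (17.4%, against 2.22% of all genes) and none fell. In each fit that left out 1 array 8 or 9 rose. Myl4, the embryonic and atrial myosin light chain, read 4110.4, 3161 and 2385 on the SJL arrays and 567, 421 and 426 on the Balb arrays, a difference of 2.71 ± 0.21 (adjusted p = 0.000215). A dimmer probe set of Myl4 read 1369.7, 1098 and 1325 on the SJL arrays and 589.9, 747 and 906 on the Balb arrays, a smaller difference of 0.76 ± 0.19 that did not pass (adjusted p = 0.0576). Actc1, cardiac alpha-actin, the actin of immature skeletal fibres, read 19841, 27284 and 24527 on the SJL arrays and 6007, 6107 and 9506 on the Balb arrays, a difference of 1.75 ± 0.19 (adjusted p = 0.00138). Another probe set of Actc1, less prone to match related actins, read 10091, 13548 and 12655 on the SJL arrays and 1551, 1249 and 1646 on the Balb arrays, a difference of 3.01 ± 0.14. Every SJL array was above every Balb array on each of these probe sets, narrowly so on the dimmer one of Myl4. Ankrd1, an ankyrin repeat protein of the sarcomere that responds to stretch and injury, read 4539.5, 3356 and 2169 on the SJL arrays and 820.2, 312 and 407 on the Balb arrays, a difference of 2.73 ± 0.36 (adjusted p = 0.00391). Tmsb10, an actin-sequestering thymosin, read 9297, 6789 and 8275 on the SJL arrays and 3127, 2895 and 3543 on the Balb arrays, a difference of 1.34 ± 0.13 (adjusted p = 0.000796). Gadd45a, a stress-induced gene that also rises after loss of the nerve, read 4612, 5266 and 3236 on the SJL arrays and 1799.7, 1572 and 1756 on the Balb arrays, a difference of 1.32 ± 0.17 (adjusted p = 0.00351).

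The alpha and beta subunits of the acetylcholine receptor also rose, and like the imprinted gene Peg3 (1.42) they were named after their values were seen. Chrna1 read 2934, 2182 and 1935 on the SJL arrays and 729, 876 and 840.4 on the Balb arrays, a difference of 1.49 ± 0.17 (adjusted p = 0.0018). Chrnb1 read 4446, 3919 and 3985 on the SJL arrays and 2244, 2294 and 1665 on the Balb arrays, a difference of 1.00 ± 0.14 (adjusted p = 0.00479). The median of the list was 0.15, and several classical members did not pass: Myh3, embryonic myosin, had 0.14 ± 0.26, and Myog, the transcription factor myogenin, 0.06 ± 0.16. The strains overlapped in both genes.

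**Figure D2:**
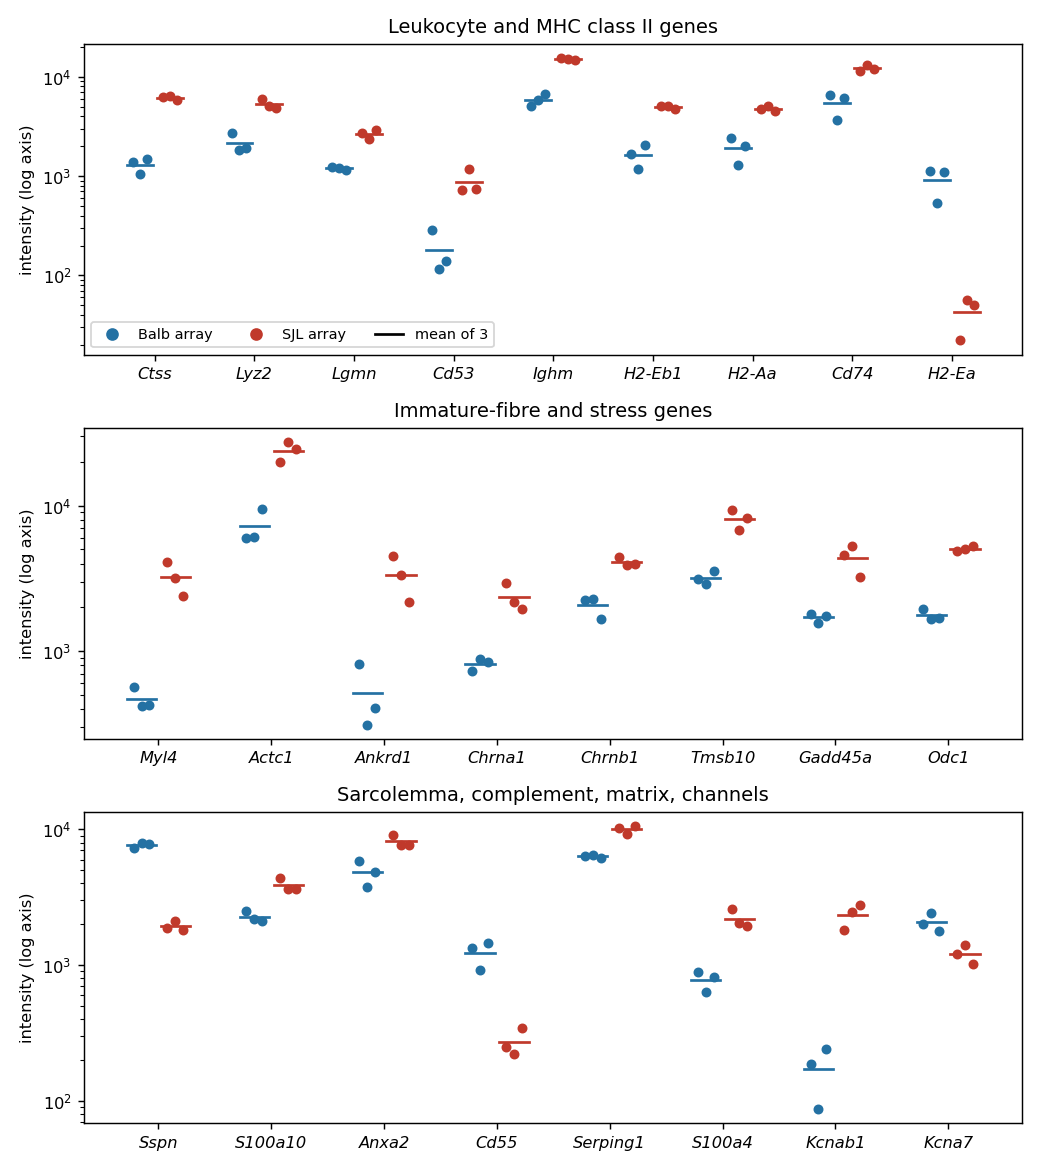
Each point is the intensity of 1 array on a log axis, blue for the 3 Balb and red for the 3 SJL arrays, with a bar at the mean of 3, for genes of leukocytes and MHC class II (top), immature fibres and stress (middle) and other named groups (bottom). All genes shown passed, so the 2 colours are apart as on every changed probe set. H2-Ea, Sspn, Cd55 and Kcna7 are lower in SJL and the others higher.

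Genes of the sarcolemma and of membrane repair passed in both directions, with 3 rises (8.11%) and 2 falls (5.41%) among 37 measured. The shares over all genes were 2.22% and 2.8%, and the median of the list was -0.08. Sspn encodes sarcospan, a membrane protein of the dystrophin complex. It read 1881, 2109 and 1826 on the SJL arrays and 7329.6, 7975 and 7854 on the Balb arrays, a difference of -1.99 ± 0.10 (adjusted p = 1.56e-05), and the call held in all 6 fits that left out 1 array. S100a10, the light chain of the annexin A2 tetramer, read 4418, 3613 and 3622 on the SJL arrays and 2483, 2196 and 2111 on the Balb arrays, a difference of 0.77 ± 0.12 (adjusted p = 0.00795). Anxa2, an annexin that gathers at membrane tears, read 9091, 7737 and 7644 on the SJL arrays and 5896, 3782 and 4855 on the Balb arrays, a difference of 0.77 ± 0.16 (adjusted p = 0.0283). Anxa1, another dysferlin-binding annexin, differed by 0.54 ± 0.12 (adjusted p = 0.036), and Capn1, the calcium-dependent protease calpain 1, by -0.64 ± 0.14 (adjusted p = 0.0367).

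Of these, Anxa2, Anxa1 and Capn1 passed in only 1 of the 6 fits that left out 1 array, the one without Balb replicate 1. The list count was 2 without Balb replicate 3 or without any 1 SJL array, and 3 without Balb replicate 2. Myeloid cells also carry annexins and S100a10. Of the 42 genes of the myeloid list 7 were called higher in SJL. The part of these cells in the rises of the membrane repair list was not tested. Other proteins of the dystrophin complex and of caveolae did not pass: Dmd (dystrophin) had 0.61 ± 0.17 (adjusted p = 0.0842), Utrn (utrophin) -0.41 ± 0.25, Sgca (alpha-sarcoglycan) 0.12 ± 0.10 and Cav3 (caveolin 3) -0.17 ± 0.09.

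Ion channels and proteins of excitation-contraction coupling had 1 rise (4.17%), that of Kcnab1, and 5 falls (20.8%) among 24 measured genes. The shares over all genes were 2.22% and 2.8%, and the median of the list was -0.40. Kcna7, a potassium channel of muscle, read 1212, 1401 and 1014 on the SJL arrays and 1998, 2419.8 and 1789 on the Balb arrays, a difference of -0.77 ± 0.16 (adjusted p = 0.0305). Cacng1, the gamma subunit of the muscle calcium channel, read 17180.1, 12380.2 and 16529.9 on the SJL arrays and 21579, 22988 and 25449 on the Balb arrays, a difference of -0.61 ± 0.14 (adjusted p = 0.0412). Its alpha2/delta partner Cacna2d1 read 1345, 1479.5 and 1124 on the SJL arrays and 1838, 3172 and 2287 on the Balb arrays, a difference of -0.85 ± 0.20 (adjusted p = 0.0456). Cacna1s, the pore subunit of that channel, read 16959, 16837 and 17661 on the SJL arrays and 21165, 27793 and 24169 on the Balb arrays, a difference of -0.50 ± 0.12 (adjusted p = 0.0459). The strains did not overlap in any of them, as on every changed probe set, but these falls were close to the threshold. No gene of the list fell without Balb replicate 2 or 3 or SJL replicate 3, 1 fell without SJL replicate 1, 2 without SJL replicate 2 and 4 without Balb replicate 1. The fifth, named after its values were seen, was Atp1b2, a subunit of the sodium pump, with -1.34 ± 0.31.

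Genes of mature fibres were counted on a fast and a slow list. Among 21 fast-fibre genes 2 fell, which is 9.52% against 2.8% of all genes, and none rose. Among 13 slow-fibre genes none passed. Myoz1, a Z-disc protein of fast fibres, read 23678, 18515 and 17193 on the SJL arrays and 28531, 32480.2 and 30249.8 on the Balb arrays, a difference of -0.63 ± 0.13 (adjusted p = 0.0315), and the other fall was that of Cacna1s, which is on both lists. Neither fall remained without Balb replicate 2 or 3 or SJL replicate 2 or 3; 1 remained without Balb replicate 1, and without SJL replicate 1 there were 4 rises and 1 fall. The slow-fibre genes with the smallest p were Atp2a2, the calcium pump of slow fibres, with 0.52 ± 0.13 (adjusted p = 0.0625), and Tnnc1, slow troponin C, with 0.43 ± 0.15 (adjusted p = 0.159). Myh4, the fast 2B myosin, read 597, 14222 and 12925 on the SJL arrays and 1371, 3663 and 3017 on the Balb arrays, and SJL replicate 1 was the lowest of all 6 arrays.

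Glycogen and glycolysis genes had 2 rises and 2 falls among 31, which is 6.45% each against 2.22% and 2.8% of all genes. Beside Phkg1, Gbe1, the glycogen branching enzyme, rose at 1838, 1681 and 1766 on the SJL arrays and 1347, 1114 and 1208 on the Balb arrays, a difference of 0.52 ± 0.12 (adjusted p = 0.0456). In the other direction Gys1, muscle glycogen synthase, read 20524, 20082 and 18022 on the SJL arrays and 26966, 28124 and 27276 on the Balb arrays, a difference of -0.49 ± 0.10 (adjusted p = 0.0243). Slc2a4, the insulin-responsive glucose transporter, read 14596, 15300.3 and 14541 on the SJL arrays and 19089, 21381 and 22567 on the Balb arrays, a difference of -0.50 ± 0.10 (adjusted p = 0.0243). Phkg1 alone remained without Balb replicate 2 or 3 or SJL replicate 2 or 3. In fatty acid oxidation 1 gene rose and 1 fell among 31, 3.23% each, near the 2.22% and 2.8% of all genes. Acaa1a, a peroxisomal thiolase, read 4622, 4562 and 4778 on the SJL arrays and 2285, 2413 and 2113 on the Balb arrays, a difference of 1.03 ± 0.09 (adjusted p = 0.000523). Crat, carnitine acetyltransferase, differed by -0.53 ± 0.10 (adjusted p = 0.0231). Of 63 genes of oxidative phosphorylation and the citric acid cycle, 1 fell (1.59%, against 2.8% of all genes) and none rose, with a median of 0.01. Ndufs4, a subunit of complex I, read 1385, 1224 and 1422 on the SJL arrays and 2256, 1909 and 2173 on the Balb arrays, a difference of -0.65 ± 0.12 (adjusted p = 0.0198). Crat was lost without Balb replicate 2 or 3 or SJL replicate 2 or 3, and Ndufs4 passed only in the fit without Balb replicate 2.

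Among 42 genes of atrophy, proteolysis, stress and metallothioneins, 3 rose and 3 fell, 7.14% each against 2.22% and 2.8% of all genes. The median was 0.14. Odc1, the first enzyme of polyamine synthesis, read 4865, 4999 and 5258 on the SJL arrays and 1943, 1653 and 1688 on the Balb arrays, a difference of 1.51 ± 0.10 (adjusted p = 8.66e-05). Gadd45a, described above, is also on this list, and Mt3, a metallothionein, differed by 0.87 ± 0.18 (adjusted p = 0.031). Fkbp5, a co-chaperone induced by glucocorticoids, read 2297, 1479.7 and 1808 on the SJL arrays and 4688, 3454 and 3296 on the Balb arrays, a difference of -1.03 ± 0.18 (adjusted p = 0.0168). Gpx3, extracellular glutathione peroxidase, differed by -0.51 ± 0.10 (adjusted p = 0.0265), and Mstn, myostatin, the inhibitor of muscle growth, by -0.45 ± 0.10 (adjusted p = 0.042). The strains were apart in these genes, as on every changed probe set. Odc1 and Gadd45a kept their calls in all 6 fits that left out 1 array. Without Balb replicate 2 or 3 the list had 2 rises and 1 fall, and without SJL replicate 3 it had 3 rises and no fall.

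Matrix genes had 3 rises (5.56%) and 1 fall (1.85%) among 54, against 2.22% and 2.8% of all genes, and a median of 0.15. S100a4, a calcium-binding protein of fibroblasts and of macrophages, read 2597, 2049 and 1926 on the SJL arrays and 884, 635 and 822 on the Balb arrays, a difference of 1.47 ± 0.17 (adjusted p = 0.00198). Tgfbi, a matrix protein induced by TGF-beta, read 1393, 1290.1 and 1497 on the SJL arrays and 766, 747 and 719 on the Balb arrays, a difference of 0.89 ± 0.13 (adjusted p = 0.00774). Col1a2, a chain of type I collagen, read 4807, 5651 and 4578 on the SJL arrays and 3231, 3334 and 3332 on the Balb arrays, a difference of 0.60 ± 0.10 (adjusted p = 0.0148), and lost its call without Balb replicate 3. Tnxb, tenascin X, was lower, with -0.54 ± 0.12 (adjusted p = 0.0402), a call that remained only without Balb replicate 1. Without Balb replicate 1 the list had 5 rises and 2 falls. S100a4 is also made by myeloid cells, of whose list 7 of 42 genes rose, and their part in its rise was not tested.

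Of 21 adipocyte genes 1 rose (4.76%) and 2 fell (9.52%), against 2.22% and 2.8% of all genes. Car3, carbonic anhydrase 3, which muscle fibres also make, read 23896, 22460 and 27536 on the SJL arrays and 14139.9, 13991 and 9082 on the Balb arrays, a difference of 1.01 ± 0.17 (adjusted p = 0.0142). Plin4, a lipid droplet protein, had -0.49 ± 0.10 (adjusted p = 0.0285) and Acly, ATP citrate lyase, -0.55 ± 0.12 (adjusted p = 0.0305). The fall of Acly was lost in each of the 6 fits that left out 1 array, that of Plin4 in all but the fit without Balb replicate 2, and the rise of Car3 without SJL replicate 3. Of 25 genes of endothelium and pericytes 1 rose (4%) and 2 fell (8%), beside the same shares over all genes. Rgs5, a pericyte regulator of G protein signalling, read 591, 404 and 807 on the SJL arrays and 1370.1, 1744 and 1591 on the Balb arrays, a difference of -1.41 ± 0.24 (adjusted p = 0.0135), and its other probe set fell by 3.45. Acta2, smooth muscle actin, differed by 0.54 ± 0.11 (adjusted p = 0.0285), and Ednrb, the endothelin B receptor, by -2.14 ± 0.50 (adjusted p = 0.0484) at intensities among the dimmest. By its brightest probe set no gene of that list passed without Balb replicate 2 or without Balb replicate 3, and 1 passed without Balb replicate 1, SJL replicate 1 or SJL replicate 3. The other probe set of Rgs5 passed in all 6 fits that left out 1 array.

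Nothing passed among 13 genes of nerve myelin, 7 of red blood cells, 19 of epidermis, tendon and cartilage, or 34 immediate early and heat shock genes. Their medians were 0.08, -0.13, 0.23 and 0.23. The members with the smallest p were Mbp (-0.47 ± 0.17) and Pmp22 (0.29 ± 0.10) for myelin, Alas2 (0.76 ± 0.43) and Epb42 (-0.84 ± 0.54) for red blood cells, Acan (-1.91 ± 0.51) and Krt4 (0.64 ± 0.18) for epidermis, tendon and cartilage, and Bag3 (-0.51 ± 0.13) and Fos (0.99 ± 0.25) for immediate early and heat shock genes. Their adjusted p-values lay between 0.0601 and 0.5. Without Balb replicate 1, 4 immediate early and heat shock genes rose.

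In the cell cycle list 1 gene of 37 fell (2.7%, against 2.8% of all genes) and none rose. Aurka, a mitotic kinase, read 743, 703 and 791 on the SJL arrays and 1932, 2166 and 2446 on the Balb arrays, a difference of -1.52 ± 0.13 (adjusted p = 0.000441). The call of Aurka held in all 6 fits that left out 1 array. Of 17 circadian clock genes 1 rose and 1 fell, 5.88% each against 2.22% and 2.8% of all genes. Arntl (Bmal1) rose by 0.70 ± 0.14 (adjusted p = 0.0249) and Tef, a clock-controlled transcription factor, had -0.49 ± 0.11 (adjusted p = 0.038). At most 1 of them passed when any array was left out, and none did without Balb replicate 1 or 3 or SJL replicate 2 or 3. Of 31 ribosomal protein genes 1 rose (3.23%, against 2.22% of all genes). This was Rpl13a, with 0.60 ± 0.14 (adjusted p = 0.045), which passed in none of the 6 fits that left out 1 array. The 1 rise found without SJL replicate 1 was that of another member.

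**Figure D3:**
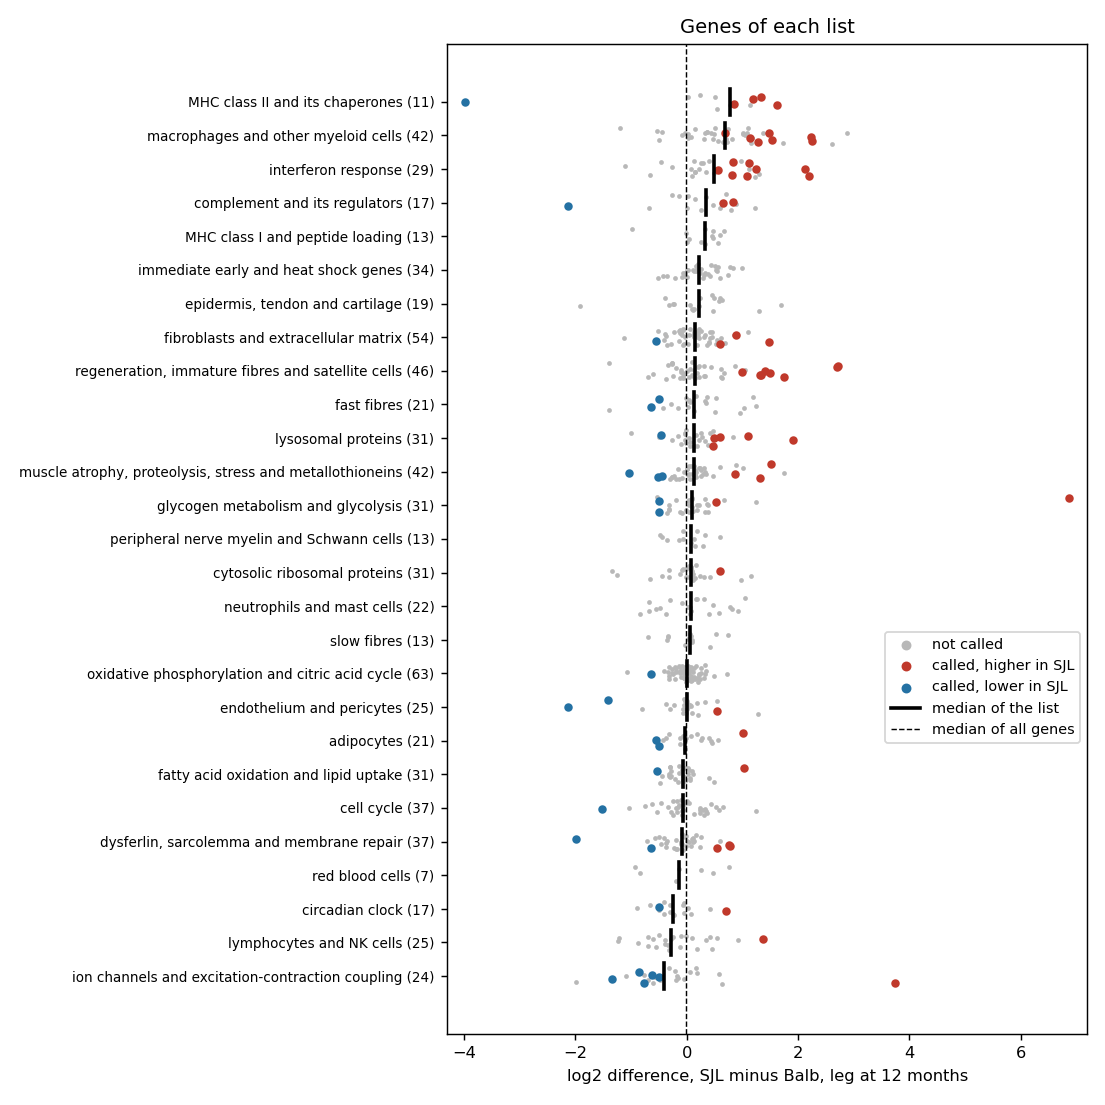
Each row is 1 of 27 gene lists, with the number of measured genes in parentheses, and each point is a gene at its log2 difference, SJL minus Balb. Red and blue points passed the test as higher and lower, grey points did not, the black bar is the median of the list and the dashed line the median of all genes; the medians run from 0.78 for MHC class II to -0.40 for ion channels.

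The same strain difference was read on 2 sets of arrays that share none with these 6. In leg at 10 months, with 3 arrays of each strain, 1 probe set passed among 12422 (0.00805%, limma) and 439 had an unadjusted p below 0.05; 28 passed without the replicate 1 arrays, which stand apart by their Actb ratios, and 3 passed with the replicate number as a block. Of the 555 probe sets changed at 12 months, 489 (88.1%) had the same sign at 10 months, where the share over all probe sets was 56.5%. The median difference of the probe sets higher at 12 months was 0.86 there and 0.56 at 10 months, and that of the lower ones -0.87 and -0.53. The test of the difference between the ages called 1 probe set (0.00805%), which has no gene name, and 496 had an unadjusted p below 0.05; it called 2 without the replicate 1 arrays of 10 months and none with the replicate number as a block, where 568 had an unadjusted p below 0.05.

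In eye muscle at 12 months, with 2 arrays of each strain, 251 probe sets passed (2.02%), and 118 of the 555 leg probe sets were among them. The variance in that test was estimated together with the leg arrays of the same age, so the eye muscle calls are not independent of them. The labels do not say whether leg and eye muscle came from the same mice. The main fit of both muscles treated all arrays as unrelated. Of the 555, 450 (81.1%) had the same sign in eye muscle, where the share over all probe sets was 57.9%, and the medians were 0.29 for the probe sets higher in leg and -0.41 for the lower ones. The test of leg against eye muscle called 50 probe sets (0.403%), 26 of which had passed in leg, 28 in eye muscle and 4 in both; with the replicate number as a block it called 23.

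Several named genes had differences of 1 sign on all 3 sets. Phkg1 had 4.81 ± 0.35 at 10 months and 5.89 ± 0.30 in eye muscle, and Sspn had -1.60 ± 0.35 and -2.07 ± 0.12. On its brightest probe set Pla2g12a had -2.36 ± 0.29 and -3.19 ± 0.11, and on the other -0.59 ± 0.48 and -0.78 ± 0.13. Mgst1 had -2.40 ± 0.59 and -3.16 ± 0.18. For these 4 genes the test of leg against eye muscle gave adjusted p-values of 0.402, 0.908, 0.904 and 0.77 in the same order. Myl4 had 2.01 ± 0.32 and H2-Ea -5.19 ± 0.58 in eye muscle.

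Other genes passed the test of leg against eye muscle. Ctss had 1.87 ± 0.53 in leg at 10 months and 0.32 ± 0.22 in eye muscle, and the leg difference at 12 months exceeded that in eye muscle by 1.92 ± 0.29 (adjusted p = 0.0162). Lyz2, with -0.86 ± 0.21 in eye muscle, differed between muscles by 2.15 ± 0.27 (adjusted p = 0.00621), and Ighm by 1.48 ± 0.21 (adjusted p = 0.0132). Lgmn and Ctsh differed between muscles by 1.16 ± 0.17 and 1.61 ± 0.23 (adjusted p = 0.0162 and 0.0132). On its brightest probe set Kcnab1 had 3.93 ± 0.56 in leg at 10 months and 0.01 ± 0.49 in eye muscle. The difference between muscles was 3.73 ± 0.63 (adjusted p = 0.0322). The second Kcnab1 probe set had 2.96 ± 0.44 in leg at 10 months and -1.81 ± 0.66 in eye muscle. Its difference between muscles, 4.11 ± 0.85, did not pass (adjusted p = 0.0726). Actc1 had 1.90 ± 0.37 in leg at 10 months and -0.09 ± 0.22 in eye muscle, and differed between muscles by 1.84 ± 0.28 (adjusted p = 0.0191). By contrast the class II genes H2-Eb1 and H2-Aa, with 0.44 ± 0.21 and 0.28 ± 0.24 in eye muscle, did not pass that test (adjusted p = 0.105 and 0.216). Ccl5 had -0.19 ± 0.40 at 10 months, and the difference between the ages, 3.33 ± 0.55, did not pass over all probe sets (adjusted p = 0.274).

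**Figure D4:**
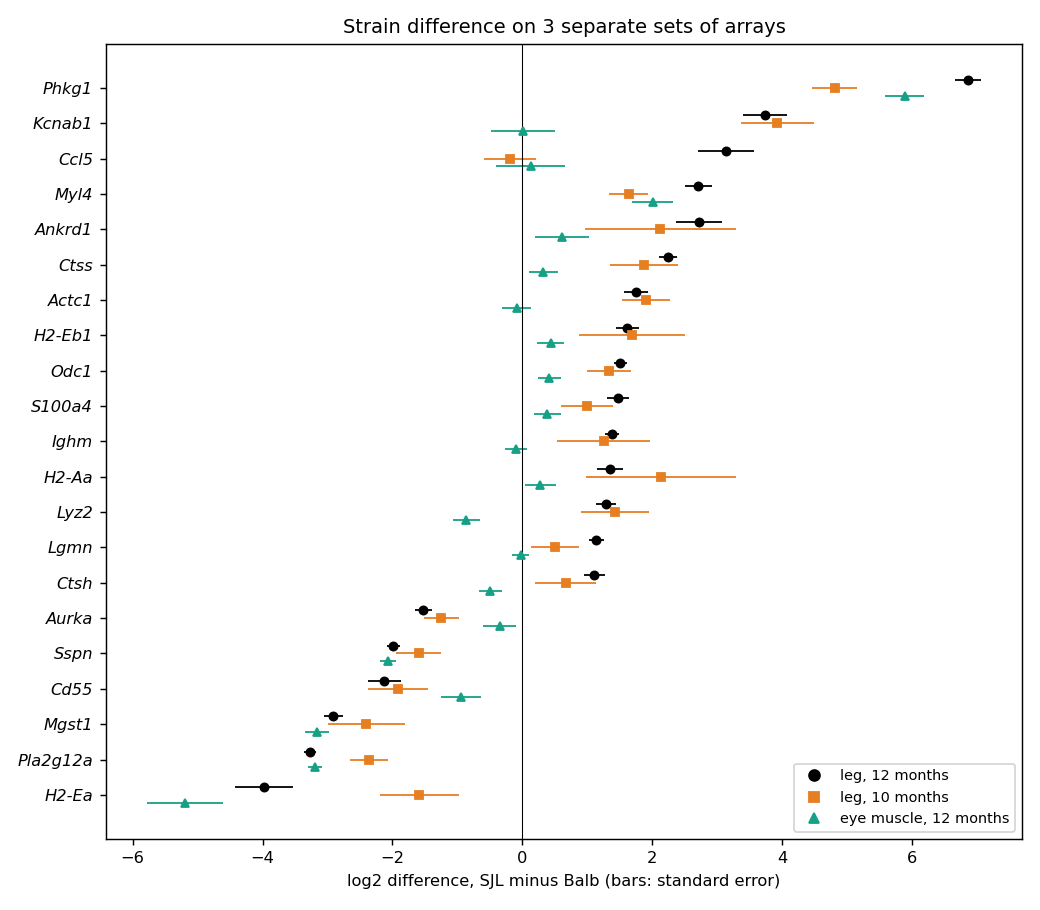
The x axis gives the log2 difference, SJL minus Balb, for 21 named genes in leg at 12 months (black circles), leg at 10 months (orange squares) and eye muscle at 12 months (green triangles), with bars of 1 standard error. Each gene is shown by its brightest probe set. Phkg1, Sspn, Mgst1 and Pla2g12a keep their side of 0 on all 3 sets, while Kcnab1, Actc1, Ighm and Lgmn lie near 0 in eye muscle.

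Probe sets of 1 gene did not always move together. Of 170 genes with a call and more than 1 probe set, 147 had a single called probe set, 20 had several called in 1 direction and 3 had calls in both directions. Pdxdc1, a decarboxylase-like protein, was the most extreme of the 3. One of its probe sets read 2079.7, 2259 and 2337 on the SJL arrays and 627, 194 and 424 on the Balb arrays, a difference of 2.52 ± 0.35 (adjusted p = 0.00479), and another rose by 2.66 ± 0.18. The third read 67.1, 33.6 and 63 on the SJL arrays and 5891, 6111 and 5398 on the Balb arrays, a difference of -6.40 ± 0.24 (adjusted p = 2.44e-06). The other genes of this kind, Vcp and Ptov1, were chosen after their values were seen: Vcp had 0.58 on its brightest probe set and -2.08 and -3.12 on dimmer ones, and Ptov1 had 0.89 and -0.49. For these 3 genes the direction of the transcript cannot be read from the arrays. The sequences under the probe sets were not compared between the strains, for these or for any other genes. Phkg1 had no second probe set named for it alone, so its difference could not be set beside another.

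Of the named genes that passed, 20 had other probe sets, and in 14 of these at least 1 other did not pass; in 8 of the 14, Myl4 and Ighm among them, such a probe set was above the dimmest 30%. Iigp1 had 0.77 ± 0.20 on its other probe set, Ctsb 0.41 ± 0.11 and 0.37 ± 0.14, and Anxa1 0.39 ± 0.24. Another Anxa1 probe set did pass, with 0.79 ± 0.15 (adjusted p = 0.0193). The values were nearer to 0 for Tnxb (-0.29 ± 0.11), Col1a2 (0.11 ± 0.14) and Crat (-0.11 ± 0.11). Among the dimmest 30%, probe sets of Lyz2 (-0.28 ± 0.55), Psme1 (-0.05 ± 0.72), Ctsb (-1.07 ± 0.64), Gaa (0.50 ± 0.54) and Tgfbi (-1.62 ± 0.57) had the sign opposite to the brightest one, and those of S100a10 and Slc2a4 had 0.07 ± 0.62 and -0.00 ± 0.57.

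**Figure D5:**
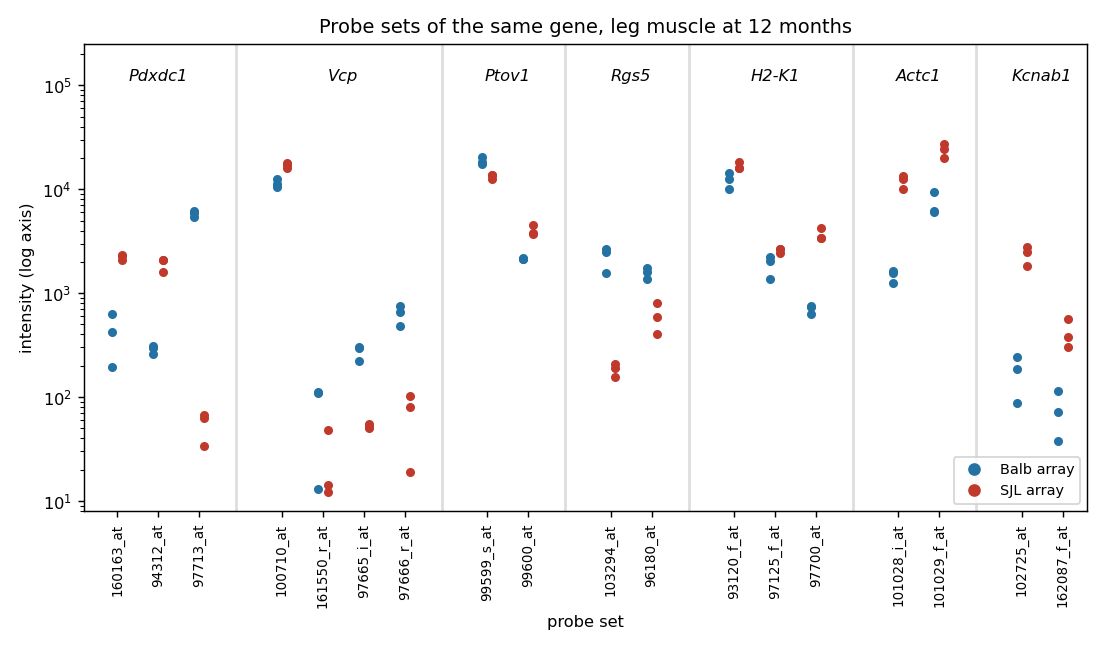
Each column is 1 probe set, grouped by gene, with the intensity of the 3 Balb (blue) and 3 SJL (red) arrays on a log axis. The third Pdxdc1 column is lower in SJL while the first and second are higher, Vcp and Ptov1 also split, and the columns of Rgs5, Actc1 and Kcnab1 point 1 way within each gene.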

How the data were processed

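Total RNA of leg muscle was read on 1-colour Affymetrix arrays. The deposited intensity values are on a linear scale, were made by the authors and had been scaled to 1 trimmed mean per array; the software, background correction and summary of probes are not given in the sources used here. The number of arrays, not a read depth, limits the precision. Intensities were used as deposited, as log2(intensity + 16), and fitted with limma 3.58.1 in R 4.3.3 (lmFit, eBayes with an intensity trend, 4 residual degrees of freedom and 5.00 from the prior) on the 6 arrays alone; p-values are two-sided and adjusted over 12422 probe sets after leaving out 66 controls. The 10-month arrays were fitted separately, and differences between sets in fits of both. The strain difference in eye muscle was taken from the fit of both muscles. Its standard errors, p-values and calls therefore also rest on the variation among the 6 leg arrays.

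Of the 12422 probe sets 10833 had 1 gene symbol, 396 several and 1193 none in GEO's platform annotation, and names were updated through RefSeq's gene table of GRCm38.p6 for 10817 gene IDs. The genes named were the 10 largest rises and the 10 largest falls among passing genes, up to 3 passing members of each list in each direction by smallest p, the 2 members with the smallest p where none passed, and Cd55, Sspn, Phkg1, Pdxdc1 and Actc1; other genes are defining markers or well-known members of their list, or were chosen after their values were seen. The comparison, the members and the 27 lists were chosen with earlier results of these data known. Deviations of same-numbered arrays correlated at -0.02, -0.05 and -0.01 at 12 months, where the numbers do not pair the samples, and at 0.58, 0.29 and 0.24 at 10 months, where they were taken to. Alternatives covered the pseudocount, filters, normalization, the variance prior, the arrays in the fit, each array left out and the replicate block; the block in the 10-month, age and muscle comparisons was added after the data were seen. Promoter sequences are RefSeq's; motifs were searched in 250 bases.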

Additional observations from a re-analysis of the deposited data

Results flagged for a closer look

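The strain difference in leg differed from that in eye muscle at 12 months for 50 of 12422 probe sets, by limma's test of the difference between differences with Benjamini-Hochberg adjustment, 33 with a higher and 17 with a lower value in leg. Among the named genes the difference in leg exceeded that in eye muscle by 3.73 ± 0.63 (SE) for Kcnab1, 2.20 ± 0.32 for Krt4, 2.15 ± 0.27 for Lyz2, 1.92 ± 0.29 for Ctss, 1.84 ± 0.28 for Actc1, 1.61 ± 0.23 for Ctsh, 1.48 ± 0.21 for Ighm and 1.16 ± 0.17 for Lgmn. For Tnnc1, slow troponin C, it was -2.15 ± 0.23 (adjusted p = 0.00347), from 0.43 ± 0.15 in leg and 2.58 ± 0.18 in eye muscle. Krt4, a keratin of epithelia, did not pass in leg (0.64 ± 0.18) and had -1.56 ± 0.24 in eye muscle. The difference between 12 and 10 months in leg passed for 1 probe set, which has no gene name, with 2.40 ± 0.28 (adjusted p = 0.0230).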

How the results depend on the processing

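All 88 genes named by the rule kept their sign under every alternative that was run. For passing genes this was largely fixed in advance, as described above. Among the 74 that passed, 50 lost their call with 1 variance prior, 59 with the ordinary test and 11 with median centring. The 555 calls became 110 with 1 variance prior, 80 with the ordinary test, 60 with 12 leg arrays and 70 with all 22 arrays, and 205 to 488 when 1 array was left out; the cause was not tested. With the replicate block there were 423 calls in leg at 12 months, where numbers do not pair the arrays, 3 at 10 months, 0 between ages and 23 between muscles; without the replicate 1 arrays of 10 months there were 28 at 10 months and 2 between ages. Counts per list when 1 array was left out ran from 4 to 14 for macrophages, 3 to 5 for MHC class II, 0 to 1 for MHC class I, 1 to 6 for interferon, 2 to 4 for lysosomes, 3 to 7 for matrix, 0 to 2 for adipocytes, 0 to 3 for endothelium, 0 to 1 for epidermis, 2 to 5 for sarcolemma, 0 to 5 for fast fibres, 1 to 4 for glycogen, 1 to 2 for fatty acids, 0 to 1 for oxidative phosphorylation, 3 to 8 for atrophy, 0 to 4 for immediate early, 0 to 1 for circadian and for ribosomal genes and 1 to 5 for ion channels. With quantile normalization 1 gene each of MHC class I, fast fibres, slow fibres and immediate early genes passed and 2 of oxidative phosphorylation. Taking a gene's probe set with the smallest p gave 1 for MHC class I, 1 for slow fibres and 2 for the cell cycle. Leaving out the dimmest 30% of probe sets, which lowers the number of tests, gave 2 for MHC class I, 1 for slow fibres, 4 for immediate early genes and 2 for the cell cycle.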

Other observations

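The following probe sets lie outside the rule for naming genes and were chosen after their values were seen. A probe set with no gene name read 25767, 14859 and 26610 on the SJL arrays and 93.5, 359.8 and 219 on the Balb arrays, a difference of 6.67 ± 0.40 (adjusted p = 5.73e-05), close in size to that of Phkg1, with 4.20 in leg at 10 months and 1.84 in eye muscle. H2-K1, the heavy chain of an MHC class I molecule, is represented above by its brightest probe set, which can match related class I sequences and had 0.47 ± 0.14. Another probe set of H2-K1 read 3393, 4263 and 3424 on the SJL arrays and 751, 636 and 739.9 on the Balb arrays, a difference of 2.35 ± 0.13 (adjusted p = 4.09e-05). Mki67, a marker of dividing cells, had a probe set that rose by 1.90 ± 0.36 (adjusted p = 0.0225) at intensities of at most 100 on every array, and another that had -0.17 ± 0.42.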
